A study of Homo sapiens with 4 samples.

Results

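LEFTY1-positive epiblast-like (Epi-like) cells were human blastoid cells with 2 or more unique transcript molecules (UMIs) of LEFTY1. They made up 1782 of the 10445 Epi-like cells, among 10902 blastoid cells and 13017 cells in all that passed the filters. A cell was kept when a single hashtag held at least 80% of its hashtag UMIs, when at most 15% of its UMIs were mitochondrial, and when it had at least 7000 UMIs in run 1 or 5000 UMIs in run 2. It was Epi-like when its UMIs of KRT8, KRT18, GATA3 and CLDN4 together did not exceed those of POU5F1, DPPA5, DPPA4, L1TD1 and TDGF1, so these 9 gate genes and LEFTY1 chose the cells. The comparison class was the 6738 Epi-like cells with 0 LEFTY1 UMIs, and the 1925 cells with exactly 1 UMI stand between them.

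Blastoids are blastocyst-like structures grown from naive human embryonic stem cells, here labelled H9 (WA09) and cultured for 120 h. They received 0 or 4 mM dimethyl α-ketoglutarate (dm-αKG), a cell-permeable form of the metabolite α-ketoglutarate, during the first 40 h only. Each of 2 independent runs of droplet 3′ RNA sequencing pooled a 0 mM and a 4 mM blastoid culture marked by antibody hashtags, and run 1 also held 40 h aggregates at both doses. A hashtagged culture in 1 run is called an arm, which gives 2 blastoid arms per dose. After aggregation, all arms were cultured in medium with the MEK inhibitor PD0325901 and A83-01, an inhibitor of the type I receptors for Nodal, activin and TGFβ. The later medium, in use up to 120 h, lacked both inhibitors. Single-cavity blastoids were picked by hand, and per the study's methods trophectoderm cells are lost in dissociation, so the shares of cell classes are not those of whole blastoids. Pools of blastoids from the same line are not separate donors. The p-values and standard errors (SE) below rest mainly on a spread between arms pooled over all genes, not on each gene's own spread.

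The libraries held 9431 and 15133 barcodes with 144122560 and 200278140 UMIs in run 1 and run 2. In a check against the labelled cell line, 2 of 2 libraries did not match their labels, so the line is given as labelled only. The runs shared 28 barcodes, 5 of them among kept blastoid cells. Median UMIs per Epi-like cell were 28952 and 30048 in run 1 at 0 and 4 mM, and 15656 and 15501 in run 2 at 0 and 4 mM.

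Nodal is a ligand of the TGFβ family that signals through activin receptors with the co-receptor TDGF1 (Cripto) to SMAD2 and SMAD3, which act with SMAD4 and FOXH1 on DNA. NODAL, LEFTY1 and LEFTY2 are themselves targets of this signal. The LEFTY proteins bind Nodal or its co-receptor and block it, which makes a feedback loop that shapes Nodal activity in the early embryo. In the human preimplantation embryo, NODAL and LEFTY transcripts are known from the epiblast.

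The promoters of 3 genes described below are shown first, because NODAL had the largest rise among well-measured genes and MIXL1 and PMEPA1 are known Nodal/TGFβ-responsive genes with signal-related motifs in the window searched. Sequences are from RefSeq on GRCh38.p14, run 5′ to 3′ on the strand of the gene, and capitals mark letters that match a FOXH1 motif (AATCCACA or AATACACA) or a SMAD motif (CAGACA or GTCTAGAC), searched on both strands. The NODAL window is chr10:70441682-70441931 on the minus strand, the MIXL1 window chr1:226223414-226223617 on the plus strand, and the PMEPA1 stretch chr20:57710667-57710696 on the minus strand.
NODAL: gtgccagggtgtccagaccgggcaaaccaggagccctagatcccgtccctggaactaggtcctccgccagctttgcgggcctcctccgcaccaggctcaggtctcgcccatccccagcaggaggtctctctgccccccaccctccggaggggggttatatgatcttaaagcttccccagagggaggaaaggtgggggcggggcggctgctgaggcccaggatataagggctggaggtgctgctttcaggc
MIXL1: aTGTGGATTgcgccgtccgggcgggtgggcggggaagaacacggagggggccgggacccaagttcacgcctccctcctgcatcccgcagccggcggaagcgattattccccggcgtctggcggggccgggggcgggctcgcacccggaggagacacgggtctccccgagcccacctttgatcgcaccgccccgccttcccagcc
PMEPA1: gcagCAGACAatgggTGTGGATTcgcccca
The NODAL window of 250 bases held none of these letters, the MIXL1 window held 1 FOXH1 match as its reverse complement, and the PMEPA1 stretch held a SMAD and a FOXH1 match. Among 35116 promoters of 250 bases, AATCCACA occurred in 0.709%, AATACACA in 0.666%, CAGACA in 13.6% and GTCTAGAC in 0.182%. Of 16 genes looked up, 9 had an entry, and 3 of their 18 entries held a match, the third being 1 of 5 entries of SMAD3 with CAGACA. PMEPA1 had 4 entries, of which 3 held no match. FGF8, FOXH1, LEFTY1, LEFTY2 and TDGF1 were among those with no entry. A match is a description of letters, not evidence of binding.

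LEFTY1-positive cells were present in every blastoid arm and were a larger share of Epi-like cells at 4 mM in both runs. In run 1 they were 63 of 360 Epi-like cells at 0 mM (17.5%, exact 95% binomial interval 13.7 to 21.8%) and 422 of 1006 at 4 mM (41.9%, 38.9 to 45.1%). In run 2 they were 459 of 3978 at 0 mM (11.5%, 10.6 to 12.6%) and 838 of 5101 at 4 mM (16.4%, 15.4 to 17.5%). The share at 4 mM was thus 2.40 times that at 0 mM in run 1 (95% interval 1.89 to 3.03) and 1.42 times in run 2 (1.28 to 1.58). Intervals cover counting error only, and an exact permutation test of 2 against 2 arms cannot reach a p of 0.05, so the shares are a description. The 0 mM share of run 1 exceeded the 4 mM share of run 2, so at full depth the order of doses held within runs and not across them.

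**Figure D1:**
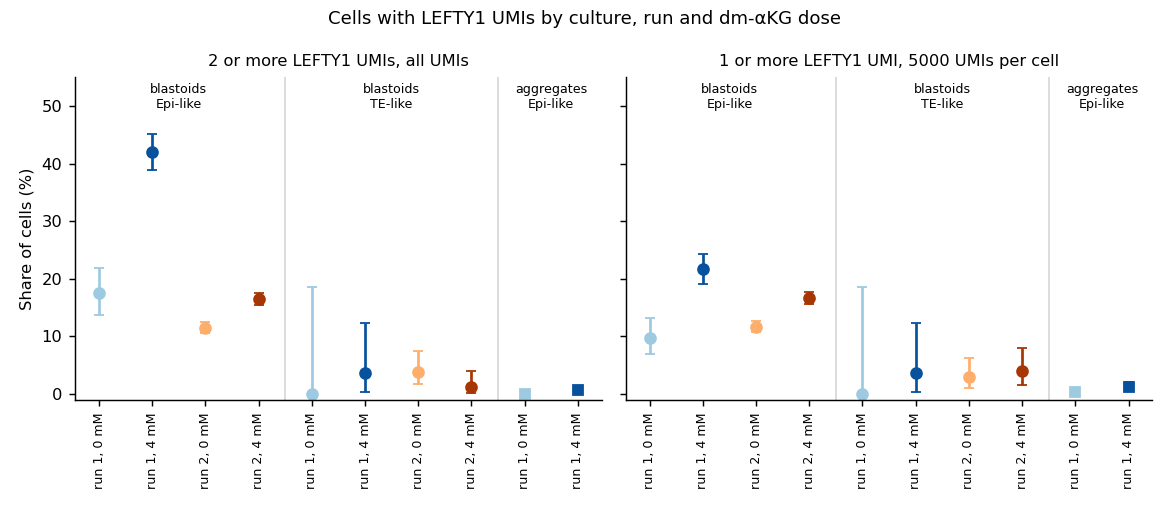
Share of cells (percent, y axis) that carry LEFTY1 in each arm, with exact 95% binomial intervals, for Epi-like and TE-like blastoid cells and Epi-like aggregate cells (squares) at full depth (2 or more UMIs) and after thinning to 5000 UMIs (1 or more UMIs). Epi-like shares are higher at 4 than at 0 mM in both runs, 41.9 against 17.5% and 16.4 against 11.5% at full depth, and TE-like and aggregate shares stay at or below 4%.

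Because deeper cells are more likely to show 2 UMIs, every cell was also thinned to 5000 UMIs. The share with at least 1 LEFTY1 UMI was then 9.72 and 21.7% in run 1 at 0 and 4 mM, and 11.7 and 16.6% in run 2. The dose order was the same within runs, and at this equal depth both 4 mM shares also lay above both 0 mM shares. The intervals of the 0 mM arms of both runs overlapped (6.87 to 13.3% and 10.7 to 12.7%). TE-like cells, defined by the same gate, served as the level that free RNA and doublets can give. Among them 0 of 18 cells were positive in run 1 at 0 mM, which allows a share of up to 18.5% (exact 95% limit), and 2 of 56 at 4 mM (3.57%). In run 2, 8 of 208 TE-like cells at 0 mM (3.85%) and 2 of 175 at 4 mM (1.14%) were positive. Median UMIs of TE-like cells were 25724, 32758, 16486 and 16487 in the same order, close to those of Epi-like cells. The Epi-like share lay above the TE-like share in the other 3 arms, and in run 1 at 0 mM the limit given by 18 TE-like cells exceeded the Epi-like share of 17.5%.

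In 40 h aggregates LEFTY1 was close to absent. By the same gate, 0 of 1016 Epi-like aggregate cells at 0 mM had 2 UMIs, which allows up to 0.362% (exact 95% limit), and 8 of 1096 at 4 mM did (0.730%, 0.316 to 1.43%). In counts per 1e6 UMIs (CPM), summed LEFTY1 was 0.895 and 2.35 in aggregates at 0 and 4 mM. In Epi-like blastoid cells it was 24.6 and 64.6 CPM in run 1 and 28.1 and 42.1 CPM in run 2. Aggregates were taken while A83-01 and PD0325901 were in the medium, and blastoids after both had been left out. Time and medium thus differ together and cannot be told apart. Aggregates have 1 arm per dose, so their doses were not compared.

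The cutoff of 2 UMIs divides a continuous range. Many positive cells lay at the cutoff, with 34 of 63, 115 of 422, 254 of 459 and 430 of 838 cells at exactly 2 UMIs in run 1 at 0 and 4 mM and run 2 at 0 and 4 mM, an order kept from here on. Cells with 5 or more UMIs numbered 9, 146, 46 and 108, and those with 10 or more 0, 23, 2 and 9. The highest single cells held 9, 21, 11 and 17 UMIs. Run 1 cells were deeper, and after thinning to 5000 UMIs the cells with 3 or more LEFTY1 UMIs numbered 0, 16, 12 and 31. Just outside the cutoff, cells with 1 UMI had LEFTY1 levels of 31.6, 32.8, 52.2 and 57.5 CPM, against 60.7, 60.0, 91.9 and 108 CPM for those with 2 UMIs just inside it. These levels are fixed by the count that defines each class and the depth of its cells, so they do not test the cutoff. Positive cells held 72.6, 90.6, 67.5 and 71.4% of all LEFTY1 UMIs of Epi-like cells.

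The UMIs that define a class cannot test it, so cells were also classed on 5000 UMIs and LEFTY1 was read in the UMIs left over. The left-over level was 45.5, 122.7, 77.7 and 92.7 CPM in cells classed positive, and 19.7, 38.1, 22.3 and 31.5 CPM in depth-matched cells classed zero, with 35, 218, 464 and 846 cells per class. The positive level was higher in all 4 arms. Cells classed zero on 5000 UMIs were thus not without LEFTY1 RNA.

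For gene comparisons each positive cell was paired with a zero cell of the same arm whose total UMIs lay within 5%, which kept 1692 pairs (63, 357, 441 and 831). Median UMIs of matched positive and zero cells were 33981 and 33985, 30192 and 29424, 18405 and 18395, and 17752 and 17753. Median mitochondrial shares were 4.31 and 4.56, 4.25 and 4.24, 3.97 and 3.97, and 4.21 and 4.17%. UMIs were added up over the cells of each class in each arm, and edgeR's quasi-likelihood test with the arm in the model was run over all genes at a Benjamini-Hochberg adjusted p of 0.05. In the matched positive cells LEFTY1 itself stood at 90.2, 136, 133 and 157 CPM, which the rule fixed.

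NODAL, the ligand that the LEFTY proteins restrain, was the transcript most clearly raised in LEFTY1-positive cells. It stood at 135, 178, 129 and 155 CPM in positive cells and at 42.1, 86.8, 70.2 and 80.9 CPM in zero cells. Every positive sum lay above every zero sum. The log2 fold change was 1.03 ± 0.041 (SE, n = 4 arms, 2.05-fold, adjusted p = 1.03e-57 by edgeR's quasi-likelihood test). In single arms it was 1.67, 1.03, 0.88 and 0.93, a wider spread than this SE, which pools over genes. At least 1 NODAL UMI was found in 93.7, 95.5, 86.6 and 87.8% of positive cells and in 68.3, 84.0, 65.1 and 67.4% of zero cells. In TE-like cells, which show what free RNA and doublets can give, it was found in 0 of 18 cells (exact 95% limit 18.5%), 4 of 56 (7.14%), 36 of 208 (17.3%) and 21 of 175 (12%). Both Epi-like classes lay above that level in each arm. Over the alternative ways of processing the log2 change ran from 0.65, with classes set on 5000 UMIs, to 1.29, with positive cells at 5 or more LEFTY1 UMIs.

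NODAL followed the LEFTY1 count in every arm. Across Epi-like cells with 0, 1, 2, 3 to 4 and 5 or more LEFTY1 UMIs it was 43.7, 78.4, 125, 129 and 188 CPM in run 1 at 0 mM, and 88.3, 123, 137, 151 and 225 CPM in run 1 at 4 mM. In run 2 the levels were 64.2, 90.4, 116, 132 and 169 CPM at 0 mM, and 80.2, 114, 142, 156 and 190 CPM at 4 mM. The level increased at each step in all 4 arms. These cells were not matched on depth, so the values are a description.

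**Figure D2:**
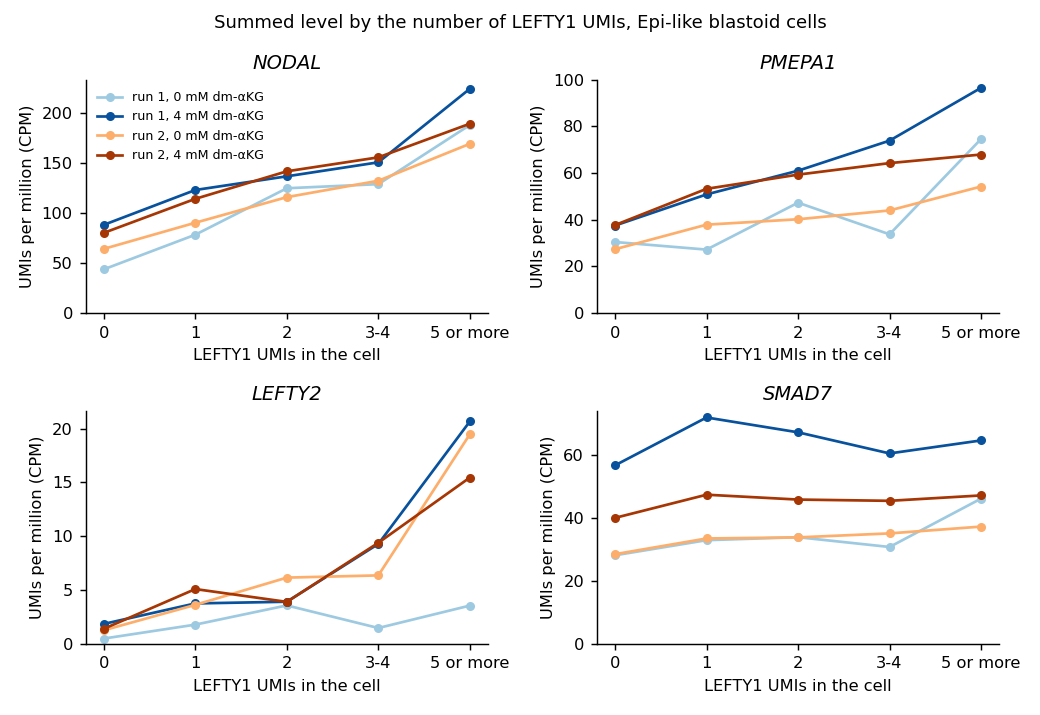
CPM (y axis) of NODAL, PMEPA1, LEFTY2 and SMAD7 summed over Epi-like cells with 0, 1, 2, 3 to 4 and 5 or more LEFTY1 UMIs (x axis), 1 line per blastoid arm. NODAL increases at each step in all 4 arms, from 43.7 to 188 CPM in run 1 at 0 mM, whereas SMAD7 increases at each step only in run 2 at 0 mM.

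PMEPA1, a TGFβ-induced membrane protein that binds and restrains SMAD2 and SMAD3, was the next largest rise. Its levels were 46.5, 80.4, 44.0 and 63.1 CPM in positive and 32.9, 36.9, 28.1 and 38.8 CPM in zero cells (log2 change 0.86 ± 0.056, adjusted p = 3.26e-31, edgeR). The ranges of the classes did not overlap. With increasing LEFTY1 count it was higher at each step at 4 mM, between 37.5 and 96.6 CPM in run 1 and between 37.7 and 67.9 CPM in run 2. It also increased at each step in run 2 at 0 mM, between 27.3 and 54.2 CPM. In run 1 at 0 mM the steps of 30.4, 27.2, 47.3, 33.7 and 74.6 CPM had no steady order.

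Over all genes the differences between the classes were small. Of 13634 genes tested apart from LEFTY1, 434 rose (3.18%) and 157 fell (1.15%), 4.33% in either direction, with a median absolute log2 change of 0.17 among them. The split depends on the scaling. With the total UMIs of each sum in place of TMM factors, which lowers the log2 changes by a median of 0.04, 159 genes rose and 402 fell, so 28.3% instead of 73.4% of called genes were rises. Of the 591 genes called, 316 were called in the same direction under both scalings, and all 591 kept their sign. Rises beyond 0.5 on the log2 scale numbered 33 and falls 24, of which 5 and 2 had at least 20 CPM.

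Among the ligands of the pathway, 2 of 4 tested rose and 0 fell (1 and 0 with total UMIs). GDF3, a Nodal-related ligand of pluripotent cells, stood at 196, 220, 195 and 213 CPM in positive and 184, 218, 182 and 199 CPM in zero cells, and its log2 change of 0.11 ± 0.032 (adjusted p = 0.0187, edgeR) was no longer called with total UMIs (0.07, adjusted p = 0.198). TGFB1 and TGFB3 were below 10 CPM and did not pass the test, with log2 changes of 0.12 and 0.17. Of the other listed ligands, INHBA, INHBB and TGFB2 were below the filter and GDF1 had 0 UMIs in these cells. NODAL was the ligand whose call did not depend on the scaling.

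Of 3 proprotein convertases, the proteases that mature Nodal-type ligands, 0 rose and 1 fell. FURIN stood between 10.7 and 13.7 CPM in positive and between 12.1 and 16.8 CPM in zero cells, lower in each arm (log2 change -0.30 ± 0.093, adjusted p = 0.0374, edgeR), and lost the call in most alternatives, among them without either arm of run 2. PCSK5 and PCSK6 had log2 changes of -0.09 and 0.24 and did not pass.

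Of 8 receptors tested, 1 rose and 0 fell. It was the co-receptor TDGF1, at 404, 444, 331 and 358 CPM in positive and 285, 387, 286 and 308 CPM in zero cells (log2 change 0.28 ± 0.028, adjusted p = 3.33e-16, edgeR). TDGF1 is a gate gene, so it also helped to choose the cells of both classes. The type I receptors ACVR1B (0.02) and TGFBR1 (-0.04) and the type II receptor ACVR2B (0.06) had log2 changes near 0 and did not pass the test. CFC1, the other co-receptor, had 0 UMIs.

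Of 6 transducers 2 rose and 0 fell. FOXH1, the DNA-binding partner of SMAD2 and SMAD3 at Nodal targets, stood at 57.6, 66.0, 76.4 and 72.3 CPM in positive and 56.6, 58.4, 62.6 and 62.7 CPM in zero cells (log2 change 0.25 ± 0.047, adjusted p = 3.79e-05, edgeR). SMAD3 stood at 10.6, 10.6, 6.89 and 8.33 CPM against 6.77, 7.13, 6.84 and 6.12 CPM (0.44 ± 0.124, adjusted p = 0.0183, edgeR). Both were higher in positive cells in all 4 arms, by little in run 1 at 0 mM for FOXH1 and in run 2 at 0 mM for SMAD3. The SMAD3 call was lost when either 4 mM arm was left out. SMAD2 and SMAD4 had log2 changes of -0.02 and 0.08 and did not pass.

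Of 15 feedback regulators and targets tested, 5 rose and 0 fell, and 4 rose with total UMIs or within cell cycle class. Besides PMEPA1 these included LEFTY2, SMAD7 and BAMBI. LEFTY2, the second LEFTY gene, stood at 2.88, 12.1, 8.06 and 7.77 CPM in positive and 0, 1.76, 1.28 and 1.19 CPM in zero cells. It was detected in 9.52, 23.5, 13.4 and 10.8% of positive cells and in 0, 4.48, 2.49 and 2.05% of zero cells. Its fitted log2 change was 2.78 ± 0.183 (adjusted p = 1.17e-30, edgeR), which is no bound because 1 zero sum was at 0. LEFTY2 is nearly identical to LEFTY1 over much of its sequence, so the split of reads between them is uncertain. In cells with 5 or more LEFTY1 UMIs LEFTY2 reached 3.55, 20.7, 19.5 and 15.5 CPM.

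SMAD7, an inhibitory SMAD, stood at 34.5, 63.9, 34.5 and 46.0 CPM in positive and 24.7, 57.4, 27.2 and 42.3 CPM in zero cells (log2 change 0.23 ± 0.055, adjusted p = 0.00314, edgeR). The 4 mM arms had more SMAD7 than the 0 mM arms in both classes, so the classes overlapped across arms while positive cells were higher within each. BAMBI, a decoy receptor of the family, had 0.23 ± 0.073 (adjusted p = 0.0452, edgeR) and lost the call with total UMIs (adjusted p = 0.138). SKIL (-0.04), TGIF1 (-0.01), TGIF2 (-0.09), CCN1 (-0.01), CCN2 (-0.27) and SMURF1 (-0.19) did not pass. CER1, a secreted Nodal antagonist, had 0 UMIs in both classes, which in the largest arm allows no more than 0.443% of the 831 matched positive cells (exact 95% limit). That limit is on cells with a UMI, not on cells that express the gene.

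**Figure D3:**
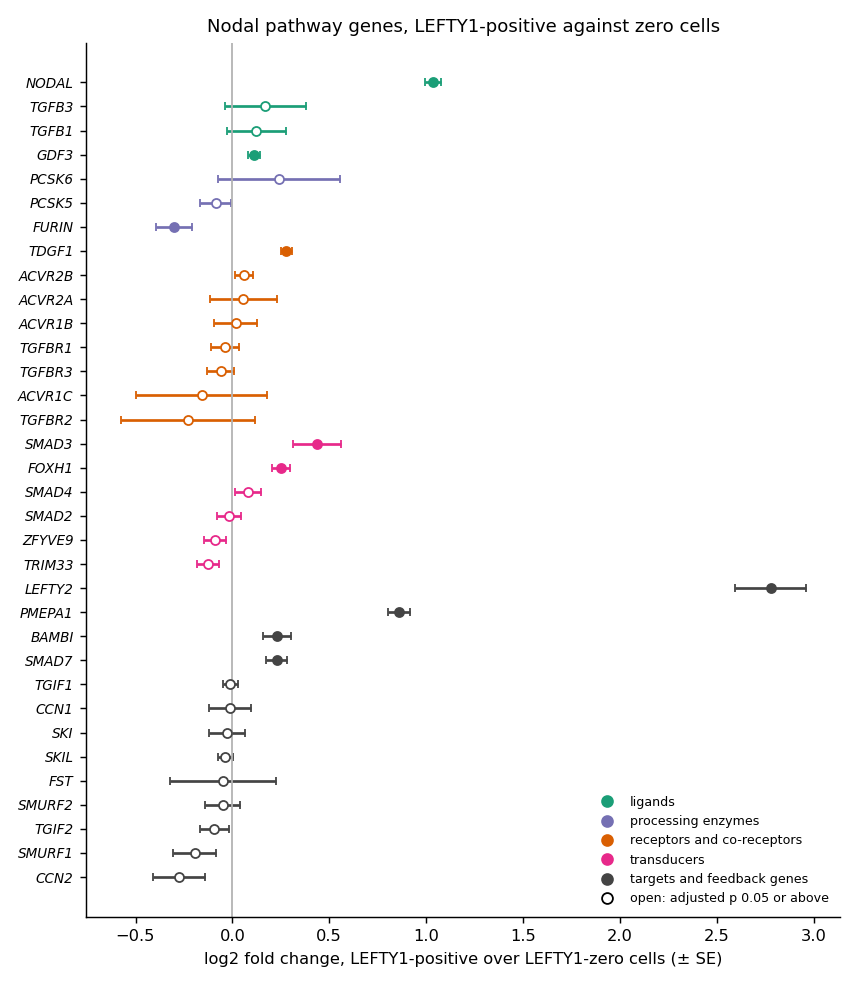
Fitted log2 fold change (x axis, points) with standard errors (bars, open points where the adjusted p was 0.05 or above) for tested genes of the 5 lists of Nodal pathway ligands, processing enzymes, receptors, transducers and feedback or target genes, LEFTY1-positive against LEFTY1-zero Epi-like cells. LEFTY2 (2.78), NODAL (1.03) and PMEPA1 (0.86) lie to the right, and most receptors and SMADs lie near 0.

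Outside the pathway lists, the largest rises and falls were taken from called genes whose mean level reached 20 CPM and whose sign did not differ between arms. After NODAL and PMEPA1 came USP13, a deubiquitinase. It stood at 33.1, 33.2, 26.1 and 37.2 CPM in positive and 14.5, 19.3, 17.6 and 22.9 CPM in zero cells (log2 change 0.76 ± 0.070, adjusted p = 2.88e-18, edgeR). CRYGD, a gamma crystallin, stood at 27.8, 23.0, 27.1 and 26.5 CPM against 17.4, 14.0, 17.3 and 16.6 CPM (0.72 ± 0.077). TMEM63A, a mechanosensitive ion channel, stood at 25.9, 35.7, 26.6 and 30.6 CPM against 14.5, 22.0, 18.4 and 22.0 CPM (0.61 ± 0.070, adjusted p = 1.38e-12, edgeR). For these 3 genes every positive sum lay above every zero sum.

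The other named rises were smaller. ID1, a target of BMP signalling, stood at 113, 137, 131 and 138 CPM in positive and 96.7, 111, 90.2 and 113 CPM in zero cells (0.39 ± 0.039, adjusted p = 2.67e-16, edgeR). GPT2, the mitochondrial alanine aminotransferase that interconverts glutamate and α-ketoglutarate, stood at 70.0, 78.7, 73.4 and 81.9 CPM against 56.1, 58.9, 63.2 and 63.6 CPM (0.38 ± 0.046, adjusted p = 1.41e-11, edgeR). HOXB2 (0.42), PIFO (0.38), UBE2C (0.36) and ITGB5 (0.36) were among the others. UBE2C, a ubiquitin-conjugating enzyme of mitosis, kept a log2 change of 0.14 when pairs were matched within cell cycle class.

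The named falls were led by CRYBA4 (-0.54), a beta crystallin, and APELA, a peptide hormone of pluripotent cells. APELA stood at 37.9, 27.5, 27.8 and 22.4 CPM in positive and 51.3, 32.7, 41.5 and 40.1 CPM in zero cells (-0.53 ± 0.065, adjusted p = 2.66e-11, edgeR). MIR302CHG, the host transcript of the pluripotency-associated miR-302 cluster, stood at 29.7, 65.6, 25.6 and 31.3 CPM against 61.4, 93.8, 32.9 and 44.0 CPM (-0.48 ± 0.055). GOLIM4 (-0.35), MIR99AHG (-0.34), USP44 (-0.33), CCNT1 (-0.30), ETV3 (-0.29), TOR1AIP2 (-0.28), SERPINB9 (-0.28) and TMEM161B-AS1 (-0.27) also fell.

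**Figure D4:**
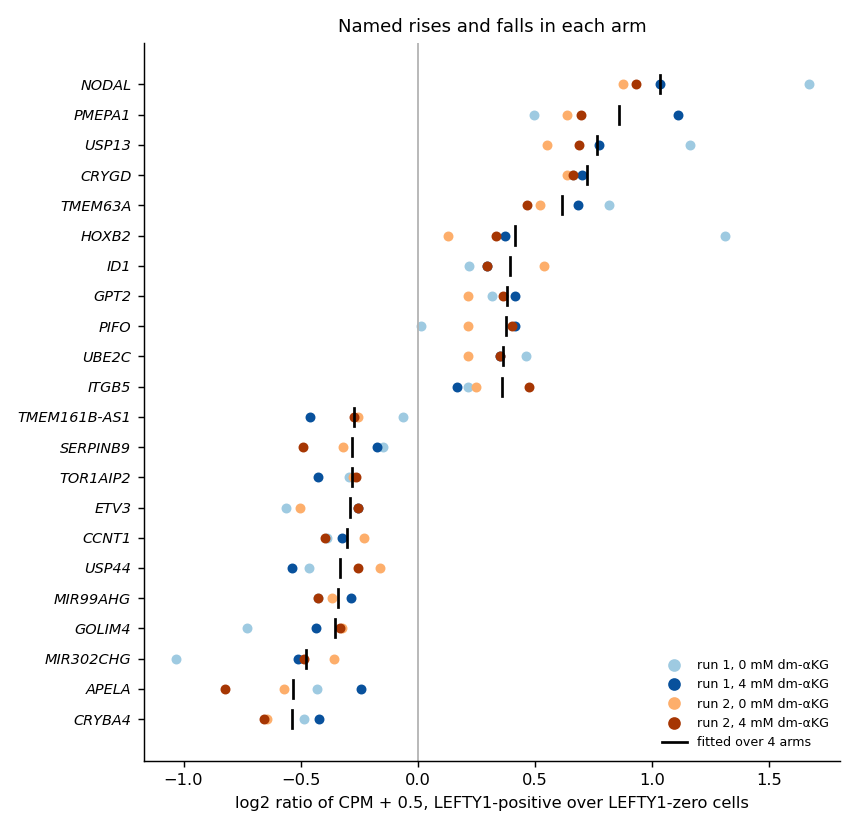
Log2 fold change (x axis) of named rises and falls in LEFTY1-positive against LEFTY1-zero Epi-like cells, with the fitted value as a black line and the ratio in each of the 4 arms as separate points. NODAL (1.03) stands farthest right and CRYBA4 (-0.54) and APELA (-0.53) farthest left. All 4 arms lie on the same side for each gene because this was a condition for naming it.

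By pluripotency state the classes were close. Of 13 core pluripotency genes 2 rose (TDGF1 and DPPA4, both gate genes) and 1 fell (LIN28A, -0.16), against 1 and 2 with total UMIs. POU5F1, SOX2 and NANOG were not called. The list of 28 naive pluripotency genes includes NODAL, which was among its rises in each fit given here. Of these genes 6 rose and 3 fell, where 3.18% of all genes rose and 1.15% fell. With total UMIs 2 rose and 8 fell (3 and 2 within cell cycle class), so the direction of this list depends on the scaling. KLF17, a naive transcription factor, kept its call under both (0.27 ± 0.063, adjusted p = 0.0016 by edgeR, and 0.23 with total UMIs), and ALPG, a placental-type alkaline phosphatase, fell under both (-0.17 ± 0.026). Of 27 formative and primed genes 2 rose, SFRP2 (0.36) and TCF7L1 (0.35), both known from Wnt signalling, and 3 fell, CD24 (-0.15), USP44 (-0.33) and ZIC2 (-0.47), with 1 and 7 under total UMIs and 2 and 5 within class. The median log2 changes of the 3 lists were -0.01, 0.02 and -0.03 against 0.00 over all genes.

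Markers of other cell types were low in LEFTY1-positive cells. Trophectoderm genes were lower: 0 of 18 rose and 4 fell (5 with total UMIs), the median log2 change was -0.22, and those that fell were the gate genes KRT18 (-0.42) and KRT8 (-0.49), FABP7 (-0.56) and PTN (-1.28). PTN was below 5 CPM, was lower in 3 of 4 arms and reversed without matching on depth. The summed level of 12 TE-like markers was 210, 308, 255 and 257 CPM in positive and 242, 461, 286 and 364 CPM in zero cells, lower in each arm, and GATA3, CDX2, HAND1 and NR2F2 were at most 1.6 CPM in every sum. Most of that sum came from gate genes. The other 9 markers summed to 43.2, 41.9, 43.8 and 40.2 CPM in positive and 34.3, 45.2, 47.8 and 48.1 CPM in zero cells, lower in 3 of 4 arms, and 0 of 7 tested were called. The part that these transcripts have in the other differences was not tested. At a stricter gate, which kept only cells with far fewer trophectoderm than epiblast gate UMIs, the log2 change of NODAL was 1.02. Summed primitive endoderm markers were 19.7, 28.6, 23.2 and 22.1 CPM against 26.6, 25.9, 23.4 and 26.3 CPM, with none of 5 tested called. Summed amnion markers were below 10 CPM in every sum, and 0 of 4 fibroblast markers were called (1 fell with total UMIs or within cell cycle class).

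Of the primitive streak genes listed, 3 were higher in LEFTY1-positive cells, MIXL1 and FGF8 at low levels. Of 6 tested of 20 listed, 3 rose and 0 fell under both scalings. MIXL1, a homeobox gene of the streak, stood at 2.40, 5.11, 3.39 and 4.23 CPM in positive and 1.93, 2.78, 1.82 and 1.75 CPM in zero cells (log2 change 1.05 ± 0.200, adjusted p = 6.43e-05, edgeR). FGF8 (0.94 ± 0.216) was higher in 3 of 4 arms, and its call was lost without either 4 mM arm. WNT3 stood at 27.3, 38.8, 39.7 and 46.1 CPM against 37.7, 27.5, 30.7 and 36.0 CPM (0.39 ± 0.061), also higher in 3 of 4 arms. TBXT had 0, 0, 2 and 2 cells with a UMI among positive cells, and EOMES 0, 6, 1 and 7, so the defining genes of the streak were at or near 0.

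More LEFTY1-positive than zero cells were assigned to G2/M in all 4 arms, which is a description, since cells of 1 culture are not replicates. Exact binomial intervals cover counting error only and narrow with the number of pairs, which was largest in run 2 at 4 mM (831). There the exact binomial intervals were 41.5 to 48.3% in positive and 31.7 to 38.2% in zero cells. In each other arm the intervals overlapped, and in run 1 at 4 mM the counts were 108 and 104 of 357. The share of matched cells assigned to G2/M was 41.3, 30.3, 41.5 and 44.9% in positive and 27.0, 29.1, 32.7 and 34.9% in zero cells, and the share assigned to S was 42.9, 35.6, 32.0 and 30.3% against 49.2, 39.5, 38.8 and 36.9%. Of 54 G2/M genes 17 rose and 0 fell (12 and 0 with total UMIs), among them UBE2C, TUBB4B (0.21), TOP2A (0.23) and CENPA (0.23), and of 43 S-phase genes 0 rose and 2 fell (0 and 8). When pairs were matched within cell cycle class, 219 genes rose in place of 434, 271 of the 591 called genes were called again, and 589 kept their sign. Within class the G2/M list had 4 rises and 3 falls and the S-phase list 1 and 0. NODAL, PMEPA1, LEFTY2, SMAD7, SMAD3 and FOXH1 were also called there.

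The ATF4, p53 and glycolysis lists held several small rises and no falls, where 3.18% of all genes rose and 1.15% fell. CHAC1, named below, was lower in positive cells in run 1 at 0 mM (14.4 against 19.8 CPM). Of 22 genes of the ATF4 and serine synthesis response, 10 rose (4 with total UMIs, 4 within cell cycle class), including the mTORC1 inhibitor DDIT4 at 95.5, 219, 86.4 and 155 CPM against 86.1, 163, 77.8 and 138 CPM (0.30 ± 0.037), MTHFD2 (0.18), CHAC1 (0.39) and TRIB3 (0.27). Of 15 p53 targets 7 rose (3 with total UMIs, 6 within class), including the pro-apoptotic PMAIP1 (0.31) and BAX (0.20), BBC3 (0.17) and the cell cycle inhibitor CDKN1A (0.42). Of 24 hypoxia and glycolysis genes 7 rose (4 with total UMIs, 4 within class), including GAPDH (0.14) and LDHA (0.16). The median log2 changes of these lists were 0.13, 0.17 and 0.07. A list of 22 genes around α-ketoglutarate and glutamate metabolism also held FBP1, an enzyme of gluconeogenesis. Of these 22 genes 3 rose (GPT2, IDH1 and PSAT1) and 2 fell, among them FBP1, against 2 and 4 with total UMIs and 1 and 1 within class.

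The remaining lists held few calls, given as rises and falls of the genes tested. ID2 of the BMP list had a log2 change of -0.66 at no more than 4.80 CPM. It was higher in positive cells in run 1 at 0 mM. BMP had 2 and 2 of 14, against 1 and 3 with total UMIs and 1 and 0 within cell cycle class. WNT had 2 and 0 of 11 in each of these fits, and FGF and ERK 2 and 0 of 22, with 2 and 1 within class. Primitive endoderm had 1 and 1 of 11 and germ cells 1 and 1 of 7, and each had 0 and 1 with total UMIs and 0 and 0 within class. Amnion had 1 and 0 of 4, a call lost in both other fits, and neural genes had 0 and 0 of 1 throughout. Imprinted and X-state genes had 1 and 0 of 9, with SNRPN at 0.24, and DNA methylation genes 1 and 0 of 11, with the imprint keeper ZFP57 at 0.29, and each had 1 and 1 with total UMIs.

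Immediate early genes had 3 and 0 of 16, against 2 and 0 in both other fits. Cholesterol synthesis had 0 and 1 of 24, against 0 and 2 with total UMIs. Metallothioneins had 1 and 0 of 7, against 1 and 2 with total UMIs and 1 and 1 within class. Heat shock had 1 and 0 of 13, against 0 and 1 with total UMIs and 0 and 0 within class. Histones had 2 and 0 of 23, against 1 and 0 with total UMIs.

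Several genes next to LEFTY1 were higher in LEFTY1-positive cells. LEFTY1 lies on chromosome 1 from 225886282 to 225911382 on the minus strand (GRCh38), and the window of 500 kb on either side was chosen after the values had been seen. Of 23 annotated genes in the files 15 were tested, of which 6 rose and 0 fell. TMEM63A, from 225845536 to 225882380 on the same strand, begins 29.0 kb downstream of the LEFTY1 start. The long non-coding gene AL591895.1, from 225840883 to 225846522 and 64.9 kb downstream, stood at 3.36, 4.30, 4.35 and 5.60 CPM in positive and 2.42, 1.48, 2.14 and 2.25 CPM in zero cells (log2 change 1.29 ± 0.194, adjusted p = 1.13e-07, edgeR). Upstream, LEFTY2 lies from 225936598 to 225941383 on the minus strand. MIXL1, from 226223618 to 226227060 on the plus strand, and H3F3A (0.09 ± 0.019) were farther away.

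The 9 neighbours that did not pass the test had log2 changes between -0.10 (DNAH14) and 0.11 (SDE2 and EPHX1), with SRP9 at 0.03, ENAH at 0.01, LBR at -0.01, ACBD3 at -0.03, LIN9 at -0.05 and PARP1 at 0.04.

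**Figure D5:**
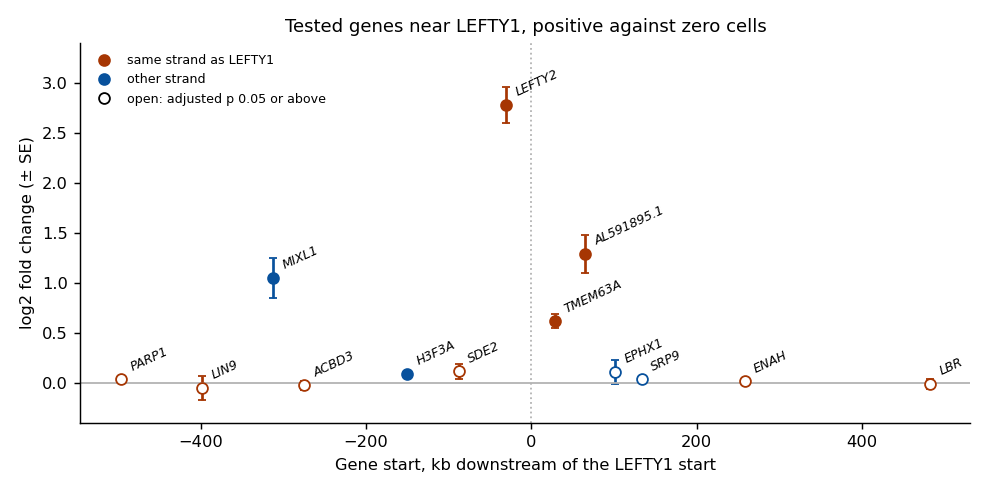
Log2 fold change with standard error (y axis) in LEFTY1-positive against LEFTY1-zero Epi-like cells for genes tested near LEFTY1, against the distance of their start from the LEFTY1 start (x axis, kb, positive downstream). The genes that rose include TMEM63A at 29.0 kb (0.61), AL591895.1 at 64.9 kb (1.29), LEFTY2 (2.78) and MIXL1 (1.05), and the genes that did not pass lie between -0.10 and 0.11.

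Whether the positive-against-zero difference itself changed with dose was asked with an interaction term on the same sums. Of 13634 genes 0 had a higher and 1 a lower positive-to-zero log2 change at 4 than at 0 mM (0.00733%), and 585 had an unadjusted p under 0.05. With DESeq2 0 genes were called and 17 had an unadjusted p under 0.05. The gene was KRT18, a keratin of simple epithelia and a gate gene, at 134, 211, 168 and 168 CPM in positive and 166, 334, 184 and 240 CPM in zero cells (interaction -0.42 ± 0.071), with a log2 change of -0.22 at 0 mM and -0.59 at 4 mM. For NODAL the interaction was -0.05 ± 0.090 and did not pass. PMEPA1 had 0.27 ± 0.128 and did not pass the adjustment.

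Last, LEFTY1-positive cells at 4 mM were compared with LEFTY1-positive cells at 0 mM, both taken at 120 h after treatment in the first 40 h. Of 13586 genes 340 rose (2.5%) and 243 fell (1.79%), 4.29% in either direction. Of the 583 called, 581 moved the same way in both runs. The call pools both runs, so this agreement is partly set by it and is no separate replication. The fit has 4 sums, the run in the model and 1 residual degree of freedom, and every gene takes the common spread. With total UMIs 432 rose and 199 fell, so 68.5% in place of 58.3% of called genes were rises. DESeq2 called 22 rises and 16 falls.

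In the Nodal lists NODAL rose in positive cells at 4 mM, with 135 CPM at 0 mM and 174 CPM at 4 mM in run 1, and 128 and 154 CPM in run 2 (log2 change 0.29 ± 0.074, adjusted p = 0.00622, edgeR). The change ran from 0.23 to 0.37 over the alternatives, but the call was lost with DESeq2, without the run in the model, at 3 or more UMIs and without any 1 arm. Of 15 feedback and target genes 5 rose and 1 fell. SKIL, a SMAD co-repressor, went from 72.9 to 146 CPM and from 79.1 to 110 CPM (0.64 ± 0.081, adjusted p = 1.12e-11, edgeR), although it did not differ detectably between positive and zero cells. PMEPA1 went from 46.5 to 78.8 and from 43.1 to 62.4 CPM (0.59 ± 0.094, adjusted p = 3.35e-07, edgeR). SMAD7 went from 34.5 to 63.9 and from 34.7 to 45.9 CPM (0.53 ± 0.101). TGIF2 (0.51 ± 0.139) and TGIF1 (0.30 ± 0.081), both SMAD co-repressors, also rose, and CCN1, a matricellular protein, fell (-0.69 ± 0.178, adjusted p = 0.00624, edgeR). All of these genes moved the same way by dose in matched zero cells of both runs. There NODAL went from 42.1 to 86.8 and from 70.2 to 80.9 CPM, and SKIL from 93.8 to 145 and from 86.1 to 119 CPM. No dose test was run in zero cells, and the interaction term called none of these genes.

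No receptor of 8, no convertase of 3 and no transducer of 6 passed the test by dose, with medians of 0.14, 0.01 and 0.16. LEFTY2 had a log2 change of 0.38 ± 0.203 (adjusted p = 0.327, edgeR) and did not pass. LEFTY1 in positive cells was 90.2 and 129 CPM in run 1 and 128 and 156 CPM in run 2 at 0 and 4 mM, which the rule bounds from below and which was not tested.

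The largest rises by dose included the glutathione-degrading enzyme CHAC1, DDIT4, the gluconeogenic FBP1, FOXD3-AS1 and THY1. CHAC1 went from 14.4 to 32.9 and from 18.4 to 34.6 CPM (0.95 ± 0.127). DDIT4 went from 95.5 to 209.6 and from 88.1 to 156 CPM (0.91 ± 0.077, adjusted p = 3.23e-28, edgeR). FBP1 went from 15.8 to 42.9 and from 19.8 to 32.7 CPM (0.88 ± 0.122), and so rose with dose but was lower in positive than in zero cells. THY1, a surface protein linked to primed pluripotency, had 0.76 ± 0.130.

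The 6 largest falls were ALPG, HPDL, PET117, GPCPD1, NDUFAF3 and NEAT1. ALPG went from 569 to 326 and from 559.6 to 383 CPM (-0.69 ± 0.059, adjusted p = 8.09e-28, edgeR), and the others had log2 changes between -0.63 and -0.55. In matched zero cells ALPG also fell, from 711.5 to 341 and from 663 to 439 CPM. Of 28 naive genes 3 rose, NODAL among them, and 4 fell (5 and 4 with total UMIs). Of 28 formative and primed genes 8 rose and 0 fell (9 and 0). The 13 core pluripotency genes held 5 rises and 0 falls (6 and 0), with LIN28A at 0.46 ± 0.073, SOX2 at 0.40 ± 0.084 and NANOG at 0.28 ± 0.073. Of 22 ATF4 genes 7 rose (8 with total UMIs), of 24 cholesterol synthesis genes 7 rose, of 7 metallothioneins 5 rose and of 23 histones 6 rose, with 0 falls in each. Of 17 trophectoderm genes 0 rose and 2 fell (CLDN4, a gate gene, and FABP7), against 0 and 1 with total UMIs. Leaving out any 1 arm cut these calls to between 0 and 63 rises and between 0 and 37 falls in a fit that could no longer hold the run, so the calls by dose rest on all 4 arms.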

How the data were processed

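The files as deposited by the authors are raw UMI count matrices from 10x Genomics 3′ v3.1 libraries, and hashtag counts are rows of them. The submitters' processing notes name bcl2fastq 2.20.0.422, Cell Ranger 6.1.2 and Seurat 4.3.0, and the reads were aligned to GRCh38. Nothing was realigned here. Cells were taken from 2 runs over 36601 genes, and 3555 and 9462 cells passed the filters. No doublet caller was run. The hashtag filter removes doublets between cultures only, and an alternative left out the deepest 5% of cells.

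LEFTY1-positive cells, gene lists and tests were chosen with earlier results of these data known, so no list is independent evidence. The 31 gene lists came from general knowledge of the pathways. For each arm, UMIs were added up over positive and over zero cells, and the sums were compared in edgeR 4.0.16 (R 4.3.3, quasi-likelihood F test, TMM factors, filterByExpr, Benjamini-Hochberg threshold 0.05). The positive-against-zero fit had 8 sums, the arm as block and 3 residual degrees of freedom, since both classes of an arm come from the same culture. The interaction fit had 2, and the fit by dose, with the run as block because both doses of a run were captured together, had 1. The spread of each gene was drawn towards that of all genes. The weight of all genes was 178.7 prior degrees of freedom in the positive-against-zero fit and infinite in the interaction and dose fits. CPM are raw sums over total UMIs, ratios per arm add 0.5 CPM, and fitted changes use the TMM factors. Cell cycle class was the higher of the S and G2/M list shares, each scaled to the mean and spread of the Epi-like cells of the arm. It was given only where that share lay above the arm's mean, and all other cells formed a class of neither. Shares of cells in S and G2/M are therefore relative to each arm. Named genes were the 12 largest rises and falls (6 by dose) among called genes whose mean reached 20 CPM and whose sign did not differ between arms, leaving out LEFTY1, the 9 gate genes, ribosomal, mitochondrial and unnamed genes. All members of the 5 Nodal lists, and up to 4 genes of each other list, could also be named. AL591895.1, H3F3A and the other neighbours of LEFTY1 were named after their values were seen. Genes on the Y chromosome, XIST and some genes withheld from the text and figures, though counted, are not reported here. The fits were tested on simulated data. Alternatives were another tool and scaling, no filter, other matching, UMI cutoffs, gates and hashtag limits, no block, and each arm left out. Total UMIs as library size and matching on the mitochondrial share were chosen after seeing the data. Coordinates are GENCODE's on GRCh38 and motifs were searched with Python 3.11.15.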

Additional observations from a re-analysis of the deposited data

Results flagged for a closer look

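KRT18, a gate gene, was the 1 gene whose difference between LEFTY1-positive and LEFTY1-zero Epi-like cells itself differed between doses in edgeR's interaction test. The interaction was -0.42 ± 0.071 on the log2 scale (adjusted p = 6e-05), with mean log2 ratios of positive to zero cells of -0.22 at 0 mM and -0.59 at 4 mM. DESeq2 did not call it.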

How the results depend on the processing

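The positive-against-zero counts of 434 rises and 157 falls changed with most settings. They were 193 and 22 with DESeq2, which gave an adjusted p to only 1257 genes, 159 and 402 with total UMIs as library size, 41 and 16 with positive cells at 5 or more UMIs, 23 and 14 with classes set on 5000 UMIs, 91 and 43 with hashtags at 95% or more, 275 and 94 with the stricter gate and 78 and 25 in run 1 alone. Rises were 219 with matching within cell cycle class and 285 at 3 or more UMIs, and falls were 333 without matching on depth. Without the replicate block, 3 genes rose and 0 fell. Leaving out 1 arm gave 138 to 396 rises and 45 to 159 falls, with 138 and 45 without run 2 at 4 mM and 190 and 65 without run 2 at 0 mM. Of 878 values for 44 named genes, 687 kept direction and call, 188 kept direction only and 3 reversed. BAMBI was -0.015 with classes set on 5000 UMIs and -0.037 with hashtags at 95%, and PTN was 0.10 without matching. The positive-against-zero change of NODAL kept its direction and call in every alternative run. By dose, DESeq2 called 22 rises and 16 falls, the fit without the replicate block 6 and 2, and the class at 3 or more UMIs 80 and 75. Falls were 158 without the filter. Leaving out 1 arm gave 0 to 63 rises and 0 to 37 falls, with 63 and 37 without run 2 at 4 mM, 1 and 4 without run 1 at 0 mM, and 0 and 0 without either of the others. The DESeq2 interaction called 0. The ratio of shares at 4 over 0 mM stayed above 1 throughout. In run 1 it was 1.64, 3.79 and 5.81 at cutoffs of 1, 3 and 5 UMIs and 7.04 after thinning with the cutoff kept at 2, and in run 2 it was 1.83 at 5 UMIs and 1.92 with hashtags at 95%. The cause of these shifts was not tested, except that smaller classes and fewer arms hold fewer counts. Depth limits the zero class, which may hold cells whose LEFTY1 was missed, as measured for classes set on 5000 UMIs alone.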
